A study of Mus musculus with 6 samples.

Results

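The placental cathepsins Ctsj, Ctsr, Ctsq, Ctsm, Cts3, Cts6, Cts7 and Cts8 were read beside the classical cathepsins Ctsl and Ctsb. These 10 genes, of 18193 genes measured, were covered by 17 of 45037 probe sets, 10 for the placental genes and 7 for the classical ones. Every probe set that the platform annotation pairs with exactly 1 of these symbols was used, and 0 further probe sets named a member together with another gene. The members were chosen by the difference between the groups in this same comparison, which was lowest for Ctsj, and the others joined as its relatives. The values of the 10 genes are therefore a description, and no p-value is given for them.

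The samples were 6 arrays of 1 mouse haematopoietic progenitor clone, C6, grown from cells of the Rosa26rtTA C57BL/6J background, which make the doxycycline-dependent transactivator rtTA. All 6 carry the lentiviral vector pRRL.TET.Evi1.IRES.EGFP, from which doxycycline induces a codon-optimized murine Evi1 together with the marker EGFP. The doxycycline group (n = 3) was kept in 1 µg/ml doxycycline, and the withdrawal group (n = 3) was taken 48 h after the drug had been removed. The medium of both groups held murine stem cell factor and human Flt3 ligand at 50 ng/ml each, human interleukin 11 also at 50 ng/ml, and murine interleukin 3 at 20 ng/ml. A single clone and a drug-induced transgene limit these samples as a model, and no arm without the vector was analysed here. The comparison addresses which transcripts differ after the inducer is removed, and loss of Evi1, loss of EGFP and absence of the drug itself cannot be told apart.

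Cathepsins of the papain family are cysteine proteases that are made as inactive precursors with a propeptide and work mainly in lysosomes. The placental cathepsins arose in rodents by repeated duplication of a gene related to cathepsin L, and in the mouse they lie together in a cluster on chromosome 13 and are known from trophoblast, the outer cell layer of the placenta. Ctsl and Ctsb encode cathepsin L and cathepsin B, which are active in most cell types, cathepsin L as an endopeptidase and cathepsin B as an endopeptidase that can also trim dipeptides from the C-terminus.

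Ctsj and Ctsr were the members with the largest differences between the groups, and the sequences around the start of these genes were set beside those of their neighbours. RefSeq promoter windows (250 bases before to 50 after the start of the gene, 300 bases, build GRCm38.p6) were found for 9 of the 10 members, all except Ctsb. The window of Ctsj lies at chr13:61005876-61006175, that of Ctsr at chr13:61164139-61164438, that of Cts6 at chr13:61203343-61203642 and that of Ctsq at chr13:61040548-61040847, all on the minus strand, and each ends inside the transcribed part of its gene. They are printed 5′ to 3′ because Ctsr shared the most bases with Ctsj, Cts6 shared nearly as many, and Ctsq is the next gene to Ctsj among the members. Capitals mark runs of at least 10 bases that are found exactly in the window of Ctsr (for Ctsj) or of Ctsj (for the others).
Ctsj: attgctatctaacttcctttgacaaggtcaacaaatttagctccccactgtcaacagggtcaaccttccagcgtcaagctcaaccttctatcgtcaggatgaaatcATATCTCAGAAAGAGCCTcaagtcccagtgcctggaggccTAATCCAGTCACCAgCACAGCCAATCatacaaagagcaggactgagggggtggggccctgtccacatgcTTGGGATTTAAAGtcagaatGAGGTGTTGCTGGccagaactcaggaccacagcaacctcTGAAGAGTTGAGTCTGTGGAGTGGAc
Ctsr: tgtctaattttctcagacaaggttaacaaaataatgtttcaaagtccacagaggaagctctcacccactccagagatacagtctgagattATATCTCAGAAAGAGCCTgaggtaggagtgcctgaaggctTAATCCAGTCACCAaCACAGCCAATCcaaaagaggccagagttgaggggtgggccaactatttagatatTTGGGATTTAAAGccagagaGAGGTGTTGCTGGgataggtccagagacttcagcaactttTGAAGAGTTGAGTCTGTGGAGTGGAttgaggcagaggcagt
Cts6: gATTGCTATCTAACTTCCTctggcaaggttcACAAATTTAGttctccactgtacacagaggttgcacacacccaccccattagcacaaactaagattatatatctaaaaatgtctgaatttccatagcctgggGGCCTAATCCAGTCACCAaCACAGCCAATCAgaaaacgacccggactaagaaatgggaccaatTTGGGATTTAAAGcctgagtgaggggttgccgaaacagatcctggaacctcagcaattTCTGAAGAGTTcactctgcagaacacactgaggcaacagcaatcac
Ctsq: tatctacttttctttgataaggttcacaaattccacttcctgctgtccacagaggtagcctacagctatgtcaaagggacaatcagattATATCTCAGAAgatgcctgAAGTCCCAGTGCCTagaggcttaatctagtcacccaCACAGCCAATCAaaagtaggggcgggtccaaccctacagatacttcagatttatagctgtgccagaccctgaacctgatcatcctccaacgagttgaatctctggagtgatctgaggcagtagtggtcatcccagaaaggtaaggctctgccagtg

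Shared runs covered 94 bases in Ctsr, 82 in Cts6, 50 in Cts7, 37 in Ctsq, 25 in Cts8 and 0 in Ctsm, Cts3 and Ctsl. Among 32842 windows of other genes 87.2% had no such run with Ctsj, and the highest number of bases was 55. In the longest run shared by Ctsj and Ctsr, 25 bases were identical. In both windows this run lies in the 50 bases after the start of the gene. The longest run that Cts8 shared with Ctsj also had 25 bases. Over the bases that could be aligned, identity with Ctsj was 76.9% for Ctsr (277 aligned bases), 73.9% for Cts6 (280), 75.5% for Ctsq (253), 77.1% for Cts7 (249), 71.6% for Cts8 (264), 67.2% for Ctsm (271) and 63.4% for Cts3 (276). By identity Cts7, which was low in every array, was thus slightly above Ctsr. By bases in shared runs the window of Cts6 came close to that of Ctsr, but by identity it ranked below those of Cts7, Ctsr and Ctsq. The Cts6 probe set stayed near the bottom of the scale in all 6 arrays, as described below. A link between the letters of a window and the level of its gene was not tested.

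Of 4 motifs searched on both strands, chosen after the sequences were seen, CCAAT was found in 7 of the 9 windows and in 37.4% of all 32851 windows, and TTTAAA in 7 of the 9 and in 13.2% of all. GATA, the core of the sites of GATA factors, was present in 7 of the 9 and in 57.9% of all. GACAAGATA, letters known as a binding sequence of the first zinc finger domain of Evi1, was in 0 of the 9 windows and in 0.119% of all windows. GACAAGATA contains GATA, so these motifs overlap. The genes of the cluster arose by duplication, so the 9 windows are not independent and no enrichment is read from these shares. A match, or its lack, describes only the letters of a window.

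The arrays had medians of 5.22 to 5.27 on the log2 scale in which all levels are given here. Withdrawal replicate 3 and doxycycline replicate 1 stood apart from the other arrays on the second principal component. All 13 markers of haematopoietic progenitors that were examined, such as Ptprc, the CD45 gene, lay above the median of all probe sets. Of these 13, Cebpa, a transcription factor gene of granulocyte development, rose by 0.74 ± 0.070 (limma adjusted p = 0.00307), and Cd34, a progenitor antigen gene, fell by 0.51 ± 0.095 on the log2 scale (limma adjusted p = 0.0463). A further 11 did not pass on their brightest probe set, and 7 of the 13 had an unadjusted p below 0.05, beside 16.3% of all genes. For Csf2rb, 1 of these 11, the dimmer of its 2 probe sets was called higher. The call of Cd34 was lost when any 1 array except withdrawal replicate 1 was left out. Without the 2 arrays apart the calls of Cebpa and Cd34 were both lost. The part of these changes in the cathepsin values was not tested. Mecom, the locus that encodes Evi1, was read by 3 probe sets with differences of -0.10 ± 0.13, -0.036 ± 0.071 and 0.13 ± 0.093 (SE). All 3 were dim in both groups, with group means from 2.63 to 3.66, where differences are compressed. These probe sets may not detect the codon-optimized transgene, so they do not check the labels. The labels do not say that replicates were separate cultures, so p-values cover only array-to-array spread, and that spread may be technical. In bulk samples, fewer cells that make a transcript and less transcript per cell cannot be told apart.

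Ctsj, cathepsin J, which is known from trophoblast, read 9.35, 9.13 and 9.33 in the doxycycline arrays and 3.48, 3.69 and 3.45 after withdrawal. All 3 arrays under the drug were high and all 3 without it were low, and the lowest of the former lay 5.43 above the highest of the latter. The group means were 9.27 ± 0.12 (SD, n = 3) and 3.54 ± 0.13 (SD, n = 3), a difference, withdrawal minus doxycycline, of -5.73 ± 0.097 (SE from limma) in the deposited values. Of 45037 probe sets 1, that of Ctsj itself, differed by as much downward, which is how the gene was chosen. Ranked among all probe sets, its level was at the 88.1st percentile under doxycycline and at the 19.4th after withdrawal. So low a reading is near the floor of the array, where values are compressed, so the size of this difference is uncertain and may be understated. Ctsj had 1 probe set, so no other reading of the gene was at hand.

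Ctsr, cathepsin R, a further protease of trophoblast, read 4.93, 5.13 and 5.35 under doxycycline and 4.04, 4.24 and 3.99 after withdrawal. The groups did not overlap, and the gap between them was 0.70. The means were 5.14 ± 0.21 (SD, n = 3) and 4.09 ± 0.13 (SD, n = 3), a difference of -1.05 ± 0.12 (SE). Ranked in the same way, Ctsr was at the 48.6th percentile under the drug and at the 30.7th after withdrawal. Like Ctsj it was read by 1 probe set. Because Ctsj moved in the same direction and the genes are related, RNA of Ctsj could add to the reading of Ctsr. The probe sequences were not used here, and this was not tested. Over all probe sets 81 had a difference as low as that of Ctsr or lower.

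**Figure D1:**
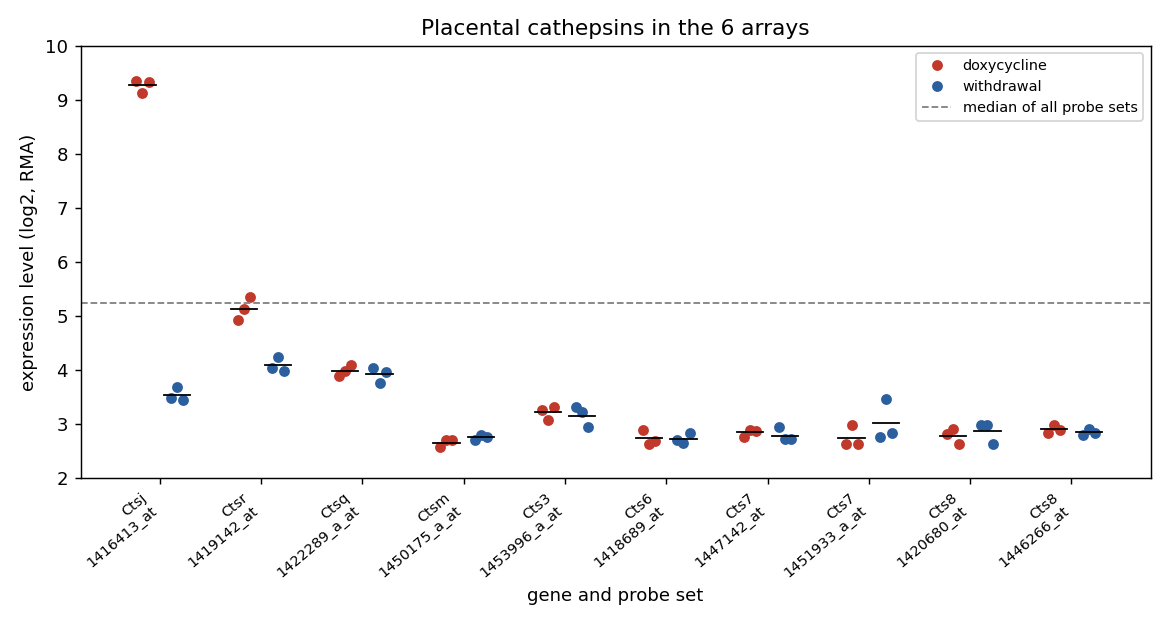
Levels of the 8 placental cathepsins by array (y axis: log2 expression, x axis: gene and probe set), with doxycycline arrays in red, withdrawal arrays in blue, group means as black lines and the median of all probe sets as a dashed line. Ctsj is at 9.27 under doxycycline and 3.54 after withdrawal, Ctsr at 5.14 and 4.09, and the 8 remaining probe sets lie at 4.09 or lower in every array.

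The other 6 placental cathepsins, read by 8 probe sets, were low in every array, with single values from 2.58 to 4.09 and group means that ranked from the 1.30th to the 29.1st percentile. Ctsq, a protease known from the giant cells that line the sinusoids of the placenta, read 3.90, 3.98 and 4.09 under doxycycline and 4.04, 3.77 and 3.97 after withdrawal. It lies between Ctsj and Ctsr on the chromosome, and its groups overlapped, with a difference of -0.064 ± 0.094 (SE).

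Cts6, whose window shared nearly as many bases with that of Ctsj as the window of Ctsr did, read 2.90, 2.63 and 2.69 under doxycycline. After withdrawal it read 2.70, 2.66 and 2.84. The groups overlapped, and the difference was -0.009 ± 0.093 (SE). Cts3 read 3.26, 3.08 and 3.32 against 3.31, 3.22 and 2.94, a difference of -0.066 ± 0.11 (SE) with overlapping groups. Cts3 lies at the far end of the cluster from Ctsj.

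Ctsm, cathepsin M, read 2.58, 2.70 and 2.70 under doxycycline and 2.71, 2.80 and 2.77 after withdrawal. These groups did not overlap, but by only 0.007, with a difference of 0.099 ± 0.070 (SE) between levels at the 2.54th and the 1.30th percentile. Cts7 and Cts8, both studied for their part in the differentiation of trophoblast giant cells, had 2 probe sets each. The brighter Cts7 probe set had the widest spread of the members, with 2.63, 2.99 and 2.63 under doxycycline and 2.77, 3.46 and 2.83 after withdrawal, where replicate 2 was the high array. Its difference was 0.27 ± 0.19 (SE), that of the other Cts7 probe set -0.053 ± 0.085 (SE). The Cts8 probe sets differed by 0.081 ± 0.12 and -0.057 ± 0.072 (SE). All 4 had overlapping groups, and within each gene the sign differed between the probe sets.

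In limma, 2 of the 17 probe sets, those of Ctsj and Ctsr, were lower at an adjusted p below 0.05 and 0 were higher, while over all probe sets 1.18% were lower and 0.790% higher. Since the contrast was used to choose the members, nothing is read from this count. None of the 8 probe sets of the other 6 placental genes was called, and 0 of them had an unadjusted p below 0.05, against 14.3% of all probe sets. Groups did not overlap downward for 2 and upward for 2 of the 17, beside 10.7% and 10.2% of all probe sets. The call of Ctsr was lost, at a difference of -1.10, without withdrawal replicate 3 and doxycycline replicate 1, a setting added after the data were seen, and the count was then 1.

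Ctsl, cathepsin L, on its brighter probe set read 12.03, 12.00 and 12.06 under doxycycline and 11.95, 11.98 and 12.02 after withdrawal. The groups overlapped, with a difference of -0.050 ± 0.062 (SE) at the 98.3rd and the 98.2nd percentile. Its dimmer probe set read 5.73, 5.59 and 5.46 against 5.85, 5.80 and 5.84. There the withdrawal arrays were all higher, by 0.24 ± 0.084 (SE), and neither Ctsl probe set was called. With the mean of both the difference was 0.094.

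Ctsb, cathepsin B, was read by 5 probe sets. The brightest read 12.63, 12.75 and 12.62 under doxycycline and 12.72, 12.74 and 12.58 after withdrawal, a difference of 0.010 ± 0.076 (SE) at the 99.0th percentile in both groups. The others differed by 0.11 ± 0.094, -0.038 ± 0.065, -0.075 ± 0.081 and -0.16 ± 0.088 (SE). All 5 had overlapping groups, and their signs were mixed. In limma 0 of the 7 probe sets of Ctsl and Ctsb were called, and 1 of them had an unadjusted p below 0.05, a share like the 14.3% of all probe sets.

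**Figure D2:**
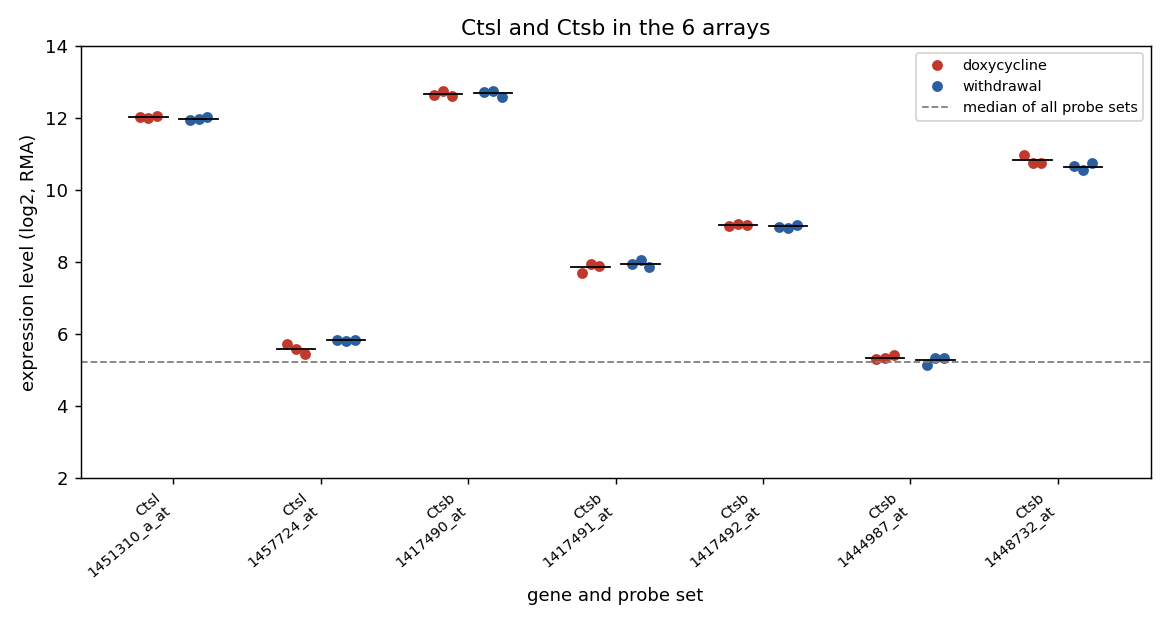
Levels of Ctsl and Ctsb by array (y axis: log2 expression, x axis: gene and probe set), with doxycycline arrays in red, withdrawal arrays in blue, group means as black lines and the median of all probe sets as a dashed line. The brightest probe sets stay at 11.98 to 12.03 for Ctsl and 12.67 to 12.68 for Ctsb, and the dimmer Ctsl probe set is at 5.83 after withdrawal and 5.59 under doxycycline.

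Over the 10 placental probe sets the median difference was -0.055, and over the 7 of Ctsl and Ctsb it was -0.038, beside 0.009 over all probe sets. The differences of the placental set ranged from -5.73 to 0.27 and those of the classical set from -0.16 to 0.24. The central 95% of all probe sets ran from -0.35 to 0.31, so 15 of the 17 members lay within the range of most transcripts.

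**Figure D3:**
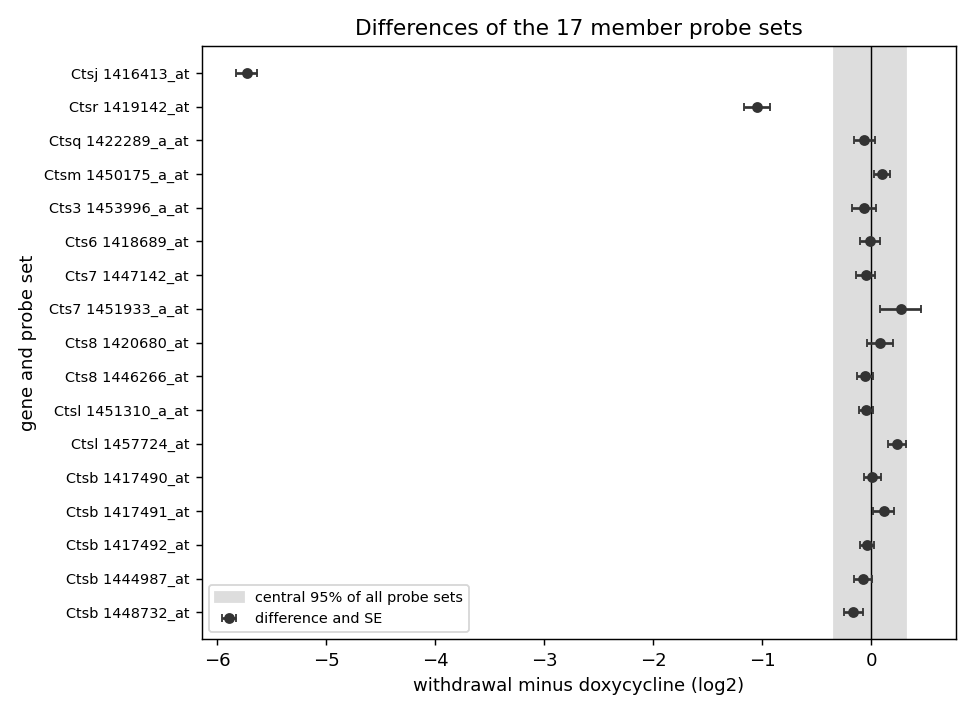
Difference of each of the 17 member probe sets (x axis: withdrawal minus doxycycline, log2; y axis: gene and probe set), with bars for the standard error over n = 3 arrays per group and a grey band for the central 95% of all probe sets, from -0.35 to 0.31. Ctsj at -5.73 and Ctsr at -1.05 lie outside the band.

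On chromosome 13 the members stand in the order Ctsj, Ctsq, Ctsr, Cts6, Cts8, Cts7, Ctsm and Cts3 in the RefSeq gene table of GRCm38.p6. Ctsj is the outermost of them on 1 side, Ctsq and a pseudogene separate it from Ctsr, and Ctsl lies on the same chromosome beyond 24 other protein-coding genes. Ctsb is on chromosome 14. Ctsj and Ctsr were thus close to each other but not adjacent, and Ctsq between them stayed near the floor.

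The genes around the cluster were read as well. Of 26 genes within it or among the 10 on each side that are not members, 7 had a probe set, and in limma 0 of these rose or fell, with 2 at an unadjusted p below 0.05. Over all genes 1.57% were lower, 1.20% were higher and 16.3% had an unadjusted p below 0.05. The 2 genes were Ctla2a and Ctla2b, which lie on the Ctsj side of the cluster, with Tpbpa and 2 noncoding genes between Ctla2a and Ctsj, and encode small proteins that resemble the propeptide of cathepsins and inhibit enzymes of the cathepsin L type. Ctla2a read 11.04, 11.09 and 11.14 under doxycycline and 10.98, 10.90 and 10.79 after withdrawal, a difference of -0.20 ± 0.075 (limma adjusted p = 0.285). Ctla2b read 8.11, 8.18 and 8.08 against 7.95, 7.93 and 7.85, a difference of -0.22 ± 0.067 (limma adjusted p = 0.192). The groups of both genes did not overlap, with the withdrawal arrays lower, as in 10.7% of all probe sets, and neither passed. Tpbpa and Tpbpb, which encode trophoblast-specific proteins and stand among the same genes, differed by 0.038 ± 0.087 (limma adjusted p = 0.902) and -0.005 ± 0.085 (limma adjusted p = 0.989).

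**Figure D4:**
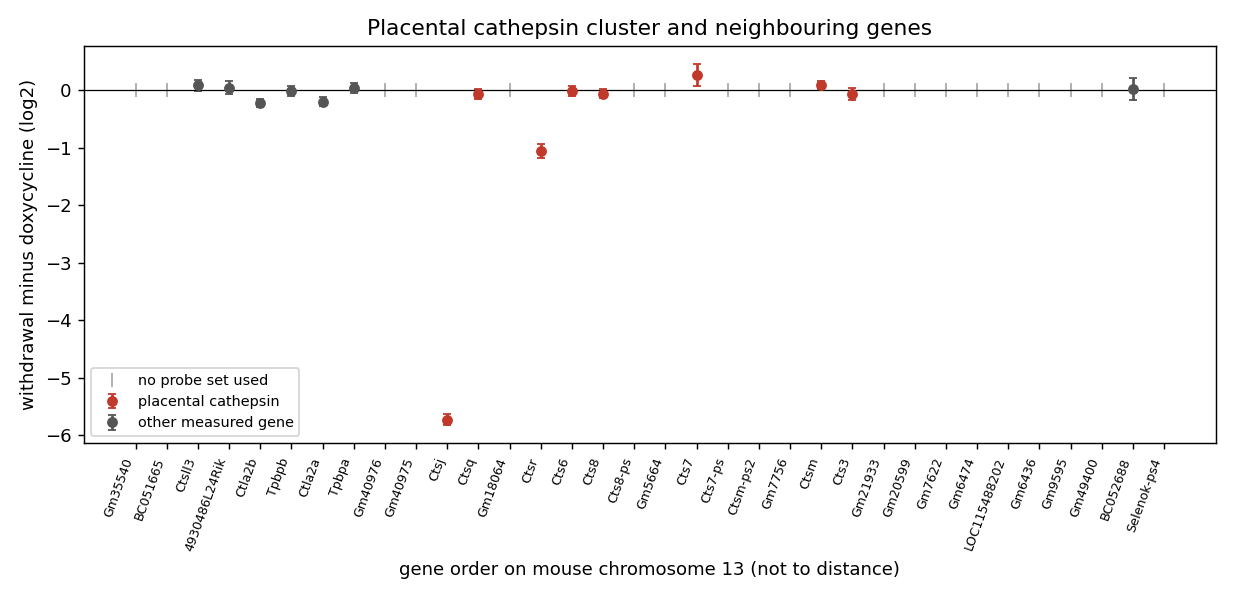
Differences (y axis: withdrawal minus doxycycline, log2, with the standard error over n = 3 arrays per group) of the placental cathepsins in red and other measured genes in grey, in their order on mouse chromosome 13 (x axis, not to distance), with ticks at genes without a probe set. Ctsj at -5.73 and Ctsr at -1.05 are low, while Ctsq between them is at -0.064.

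Other genes of trophoblast were examined because the placental cathepsins are best known there. Of 39 measured markers, 34 lay below the median of all probe sets in both groups, among them Tpbpa at 3.21 under doxycycline and 3.25 after withdrawal, and the transcription factor genes Hand1, Cdx2, Eomes and Elf5. The mean level of the list ran from 4.27 to 4.28 in the doxycycline arrays and from 4.18 to 4.32 in the withdrawal arrays, so the groups overlapped. In limma 1 of the 39 fell and 0 rose, beside 1.57% of all genes that were lower and 1.20% that were higher, with a median difference of 0.022 against 0.013 for all genes.

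The marker that fell was Phlda2, an imprinted gene that limits growth of the placenta. It read 8.65, 8.54 and 8.70 under doxycycline and 6.84, 6.78 and 6.77 after withdrawal, a difference of -1.83 ± 0.071 (limma adjusted p = 4.30e-05). Every doxycycline array was above every withdrawal array, and the call was kept when any 1 array was left out. The remaining markers at or above the median in at least 1 group were Plac8, which myeloid cells also express, Psg23, Dlx3 and Plac1. Plac8 was at 13.79 under doxycycline and 13.96 after withdrawal, a difference of 0.16 ± 0.067 (limma adjusted p = 0.338). On a list of 10 stroma and fibroblast markers 8 lay below the median in both groups. The 1 that fell, beside 1.57% of all genes, was Thy1, also a surface antigen of blood progenitors, by 0.76 ± 0.066 on the log2 scale (limma adjusted p = 0.00221). The call of Thy1 was kept when any 1 array was left out but was lost without withdrawal replicate 3 and doxycycline replicate 1.

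Of 18 other proteases of the lysosome and of granules, all measured, 1 rose and 1 fell in limma on their brightest probe set. Their median difference was -0.066 against 0.013 for all genes, and 5 had an unadjusted p below 0.05, which 16.3% of all genes had. Tpp1 is not counted as fallen, though the dimmer of its 2 probe sets was called lower. Ctsg, the serine protease cathepsin G of neutrophil granules, read 14.16, 14.16 and 14.18 under doxycycline and 14.45, 14.49 and 14.53 after withdrawal. It rose by 0.32 ± 0.062 (limma adjusted p = 0.0492), a call lost without any 1 of the 6 arrays. Prcp, a serine carboxypeptidase, went from 8.31, 8.30 and 8.34 to 7.84, 7.87 and 7.75. Its difference was -0.49 ± 0.065 (limma adjusted p = 0.0128), and the call was lost when withdrawal replicate 2 or any 1 of the doxycycline arrays was left out. Of its 4 probe sets 2 were called lower, and with their mean the difference was -0.30 and did not pass (limma adjusted p = 0.0554).

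Among the papain-like cathepsins outside the cluster, Ctso had the largest difference, -0.36 ± 0.082 (limma adjusted p = 0.0831), and did not pass. Ctss, cathepsin S of antigen-presenting cells, differed by 0.010 ± 0.063 (limma adjusted p = 0.967), Ctsc, which activates granule serine proteases, by -0.071 ± 0.062 (limma adjusted p = 0.681) and Ctsz by -0.037 ± 0.070 (limma adjusted p = 0.875). The aspartic protease Ctsd differed by 0.086 ± 0.064 (limma adjusted p = 0.619), and Lgmn, the legumain that processes several cathepsins, by -0.22 ± 0.081 (limma adjusted p = 0.282). None of these passed. Of 32 genes of lysosomal sorting and biogenesis 0 passed in limma, with a median difference of -0.026. An unadjusted p below 0.05 was found for 5 of them, beside 16.3% of all genes. The largest differences were those of the sialidase gene Neu1 (0.32), the transcription factor gene Mitf (-0.26) and the sorting receptor gene Sort1 (0.25).

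Inhibitors of cysteine proteases were measured for 16 genes, of which 1 rose and 0 fell in limma, with a median difference of 0.044. Over all genes 1.20% were higher and 1.57% were lower. An unadjusted p below 0.05 was found for 4 of the 16, beside 16.3% of all genes. Ctla2a and Ctla2b, described above as genes near the cluster, are counted among these 4. The rise was that of Cst7, cystatin F, an inhibitor found in granules and lysosomes of immune cells. It read 10.64, 10.73 and 10.76 under doxycycline and 11.77, 11.86 and 11.74 after withdrawal. All withdrawal arrays were higher, with a difference of 1.08 ± 0.070 (limma adjusted p = 0.000568), and the call was kept when any 1 array was left out. Cst3, the secreted cystatin C, differed by -0.28 ± 0.067 (limma adjusted p = 0.100), with groups that did not overlap, and did not pass. Of the stefin type, Cstb differed by 0.15 ± 0.076 (limma adjusted p = 0.449), Stfa2l1 by 0.059 ± 0.080 (limma adjusted p = 0.813) and Stfa3 by 0.030 ± 0.060 (limma adjusted p = 0.885), and none of them passed.

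**Figure D5:**
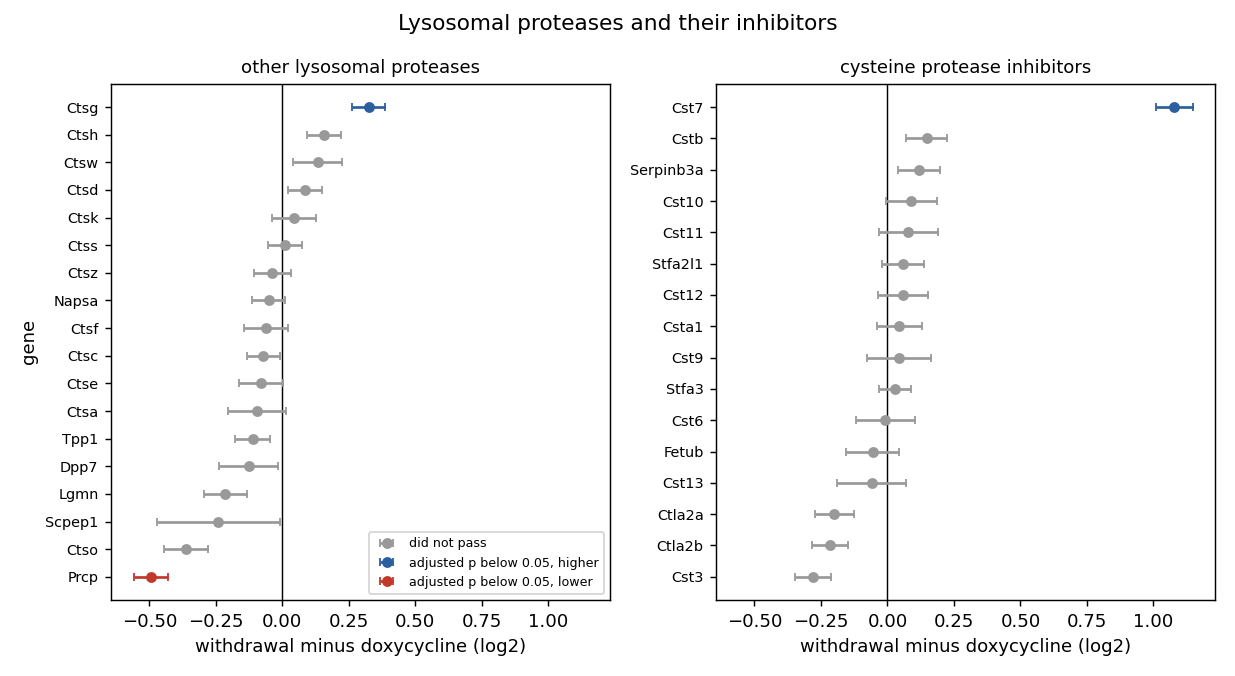
Differences (x axis: withdrawal minus doxycycline, log2, with the standard error over n = 3 arrays per group) of 18 lysosomal and granule proteases on the left and 16 cysteine protease inhibitors on the right (y axis: gene). Genes past an adjusted p of 0.05 in limma are coloured, and Cst7 at 1.08 lies farthest from 0.

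Likeness to Ctsj was ranked among 7943 genes whose mean reached 7 in the brighter group, with members and unnamed transcripts left out. The 5 of these whose pattern over the 6 arrays was most like that of Ctsj were Selp (Pearson r = 0.99971), S100a4 (0.99909), Ms4a6b (0.99874), Phlda2 (0.99861) and Aldh1a1 (0.99842). The arrays fall into 2 groups, so r mainly reflects how narrow each gene's spread was beside its difference, and no p is given. Selp, P-selectin, read 8.77, 8.67 and 8.73 under doxycycline and 5.96, 5.96 and 5.94 after withdrawal. S100a4, a calcium-binding protein gene, read 12.28, 12.20 and 12.25 against 11.10, 11.08 and 11.09. In both and in Phlda2, as in Ctsj, doxycycline replicate 2 was the lowest array under the drug. In Ms4a6b and Aldh1a1 the lowest was doxycycline replicate 3. The 5 genes were chosen by likeness over these same arrays, which favours a shared order, so nothing is read from it. Selp and Phlda2 reached a mean of 7 only under doxycycline.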

How the data were processed

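Expression was measured on 6 mouse arrays from total RNA. Per the labels' protocols this RNA was turned into amplified cDNA that carried biotin. The deposited values are log2 levels, 1 per probe set and array, which the authors made with RMA per the submitters' processing notes. RMA puts all arrays on 1 distribution, so a shift of most transcripts would be removed, and it compresses differences of dim transcripts. Its version and filters were not given in sources used here. The number of arrays limits the precision.

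Of 45101 rows, 64 manufacturer controls were left out. The platform annotation gave 1 symbol to 34945 probe sets, several to 932 and none to 9160, and 0 symbols changed against RefSeq of GRCm38.p6, in which 34741 were found. Coordinates belong to the RefSeq windows, since no build is named for the array. Genes on lists were read from their brightest probe set. The groups were compared in limma 3.58.1 (lmFit, then eBayes; R 4.3.3), with no covariate (4 residual and 3.54 prior degrees of freedom), two-sided, with Benjamini-Hochberg adjustment over 45037 probe sets and a threshold of 0.05. The steps were tested on simulated data. Windows were aligned with Biopython 1.88, and figures were drawn with matplotlib 3.10.9.

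The members and lists were chosen with earlier results of these data known. All members are named, any gene of a list of at most 20 could be named, in longer lists those with the smallest adjusted p or the largest difference, and of marker lists those above the median level. Plac1, the trophoblast transcription factors and the genes around the cluster were named after their values were seen. Alternatives were each replicate left out, a replicate block, dim probe sets removed, centred arrays, repeated quantile normalization, trend and robust options, array weights, other choices of probe set and, added after the data were seen, a fit without the arrays apart on the second component.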

Additional observations from a re-analysis of the deposited data

How the results depend on the processing

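The differences of the 17 member probe sets moved by less than the spread between replicates in all 212 values recomputed over 13 settings. For most settings this was fixed in advance. Leaving out 1 of 3 arrays cannot move a difference by more than that spread. The replicate block, the removal of dim probe sets and the trend and robust options leave it unchanged. Ctsj ran between -5.81 and -5.64 and Ctsr between -1.15 and -0.94. Without _s_at, _x_at and _a_at probe sets Cts7 went from 0.27 to -0.053 and Ctsl from -0.050 to 0.24, while Cts8 stayed at -0.057. In that setting 3 members with only _a_at probe sets (Ctsq, Ctsm and Cts3) had no value. With the mean of probe sets Cts7 was at 0.108, Cts8 at 0.012 and Ctsl at 0.094. The members called stayed at 2 when any 1 array was left out and were 1 above the median level, where Ctsr is not tested, and 1 without withdrawal replicate 3 and doxycycline replicate 1, the arrays apart. Nothing is read from the count of member calls in any setting, since the contrast was used to choose the members. Over all probe sets, 530 lower and 356 higher calls became 1082 and 862 above the median level, 962 and 758 with array weights, 1389 and 1071 with trend and robust options, and 94 and 28 without both arrays apart. With 1 array left out they ran from 173 to 346 lower and from 88 to 256 higher. The number of list genes past the threshold, 7 in the main setting, was 14 above the median level, 13 with array weights, 11 with the mean of probe sets, 18 with trend and robust options, 2 without both arrays apart and 4 to 6 with 1 array left out. With the replicate block there were 197 lower and 94 higher probe sets and 4 list genes, and the 2 member calls were kept. The deviations of same-numbered arrays correlated at -0.30, 0.46 and -0.033, which shows no pairing by number. These correlations cannot exclude a pairing, because the deviations within a group of 3 are not independent. Levels near the floor of the arrays limit what can be said of the placental cathepsins other than Ctsj.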
